A study of Canis lupus familiaris with 62 samples.

Results

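The mitochondrial chromosome of the dog was followed through 62 RNA libraries, each from 1 spontaneous canine meningioma, a tumour of the membranes around the brain. Its genes were taken as every row of the deposited count table whose chromosome is MT, which gave 37 genes of 30951. They lie between bases 1 and 15457 of the mitochondrial sequence of CanFam3.1, each as a single exon, 28 on the plus strand and 9 on the minus strand. By length they fall into 15 genes of 204 to 1821 bases and 22 of 60 to 75 bases. The table and the name table at hand give no symbol or class for any of the 37 identifiers, so the genes are called here by their length, with identifier and position where a result turns on them. For the same reason the tissue could not be checked against marker genes of cell types.

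The mammalian mitochondrial chromosome is a small circle that codes for core subunits of the respiratory chain and the ATP synthase, for the RNAs of the mitochondrial ribosome and for a set of transfer RNAs. Both strands are transcribed into long precursors that run over many genes, and the precursors are cut into single RNAs, often at the transfer RNAs that lie between longer genes. Steady-state amounts therefore depend on transcription of the whole circle, on early ending of transcripts, on processing and on the stability of each RNA, besides the number of mitochondria in a cell.

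The dogs were put into 6 groups by treatment label. The surgical groups were surgery with radiotherapy (SxRT, n = 9) and surgery alone (Sx, n = 13). The labels of some dogs in both add that they were lost to follow-up, and these dogs were kept in their group. The others were radiotherapy alone (RT, n = 3), a steroid (n = 7), an anti-epileptic drug alone (n = 3) and no treatment (n = 27). The steroid was given alone to 1 dog and together with an anti-epileptic drug to the others. All tissue was formalin-fixed and paraffin-embedded. Tissue came from surgery or from post-mortem examination, and the labels state neither the source of each library nor whether sampling preceded treatment. Library titles begin with S (21 libraries) or N (41) and a number from 11 to 22, both unexplained by the labels. All 21 S titles are surgical, and only 1 surgical library (Sx replicate 1) has an N title, so surgery and title letter can hardly be told apart. Totals ran from 1967061 to 12063982 counts a library, of which 78636 to 5632918 fell on mitochondrial genes. In bulk tumour tissue, fewer cells of a type and less RNA per cell cannot be told apart.

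All 15 long genes were counted in all 62 libraries. Of the 22 short genes, 19 had 0 counts in every library. The sequenced reads were 150 nt long, more than the 75 bases of the longest short gene, and the counting call in the file header holds no option to count a read that overlaps more than 1 gene. In the linear sequence, 2 of the 3 short genes with counts border on the widest stretch between genes that no gene covers, 33 bases, and the third on the uncovered sequence after the last gene. The other short genes border on gaps of at most 17 bases. A 72-base gene at MT:5107-5178 (12 counts in 3 libraries) and a 68-base gene at MT:5212-5279 (21 counts in 17 libraries) lie on either side of the 33-base stretch. The third, ENSCAFG00000022744, is a 66-base minus-strand gene at MT:15392-15457, the last of the chromosome's genes in the annotation, with no gene after it. It had 68910 counts and was counted in all 62 libraries. Its counts can include any read that starts in the uncovered sequence beyond it, on either strand, since the counting used no strand. Counts of the short genes are therefore not a measure of their RNA, and 16 genes (the 15 long genes and the 66-base gene) remained after the filter on low counts.

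The 1580-base gene ENSCAFG00000022711 at MT:1091-2670 took 37.1% ± 10.5 (SD, n = 62) of the mitochondrial counts, with a lowest library of 15.1%, a median of 36.8% and a highest of 65.2%. It ranked first in 60 libraries and held more counts than all other mitochondrial genes together in 7. The 1545-base gene at MT:5349-6893 followed with 13.4% ± 2.96, and the 1378-base gene at MT:10201-11578 with 11.6% ± 2.85. The 1545-base gene ranked second in 42 libraries, and the 1378-base gene was second in 18 and first in the other 2.

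Between these and the rarest genes lay a middle tier. The 784-base gene (MT:8644-9427) took 7.09% ± 1.61, the 684-base gene (MT:7034-7717) 5.70% ± 1.26 and the 681-base gene (MT:7964-8644) 5.10% ± 1.24. These 3 lie near each other, with only the 204-base gene and a short gene between the 684-base and 681-base genes. The 1821-base gene (MT:11778-13598), the longest of the chromosome, took 4.46% ± 1.02. The 1044-base gene (MT:3914-4957) took 3.50% ± 1.20, the 957-base gene (MT:2747-3703) 3.34% ± 1.12, the 1140-base gene (MT:14183-15322) 3.12% ± 0.770 and the 954-base gene ENSCAFG00000022709 (MT:70-1023) 2.81% ± 0.889. In this order, each gene differed from the next by less than the larger of their 2 SDs.

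The remaining genes were rarer. The 528-base gene (MT:13582-14109), the single long gene on the minus strand, took 1.21% ± 0.504. The 347-base gene (MT:9496-9842) took 0.931% ± 0.366 and the 297-base gene (MT:9911-10207) 0.311% ± 0.0794. The 204-base gene (MT:7803-8006) took 0.137% ± 0.0541, and it shares 43 of its bases with the 681-base gene, so reads over both would count for neither. The 66-base gene took 0.166% ± 0.0836. The 9 minus-strand genes together held a median of 1.12% of the mitochondrial counts in surgical dogs, against 1.24% in untreated dogs. The counting used no strand, so these counts can include reads from either strand.

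**Figure D1:**
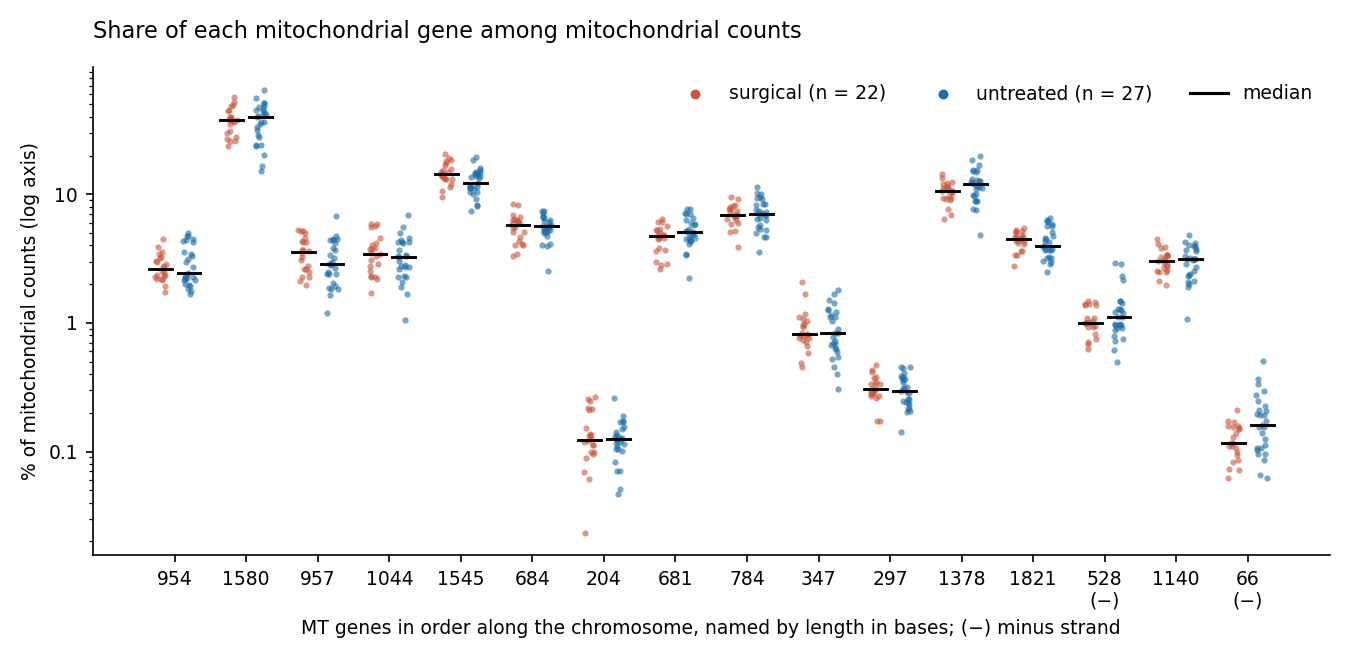
Share of each of the 16 mitochondrial genes that passed the filter among a library's mitochondrial counts (percent, log axis), with genes in their order on the chromosome and named by length in bases. Points are libraries of surgical (n = 22) and untreated (n = 27) dogs and bars are medians; the 1580-base gene is highest, the 204-base and 66-base genes are lowest, and the groups overlap for every gene.

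Per length, the 1580-base gene also had the highest level. Its median was 29323 CPM per kilobase, where CPM are counts scaled to a common library total. Next came 5 genes with similar medians per kilobase, 10040 for the 1545-base gene, 9975 for the 1378-base, 9959 for the 784-base, 9479 for the 684-base and 8879 for the 681-base gene. The 954-base gene, which lies 67 bases before the 1580-base gene with 1 short gene between them, was at 3434, and the 1580-base gene had between 7.22 and 24.5 counts for each count of it (median 13.2). Without correction for length, the longest gene ranked among the middle tier, and per kilobase it was at 2670. The 204-base gene had the lowest median of the 15 long genes, 746, and the next lowest was the 297-base gene at 1215. Reads that overlap 2 genes were not counted by default, which would lower the value per kilobase of short genes more than that of long ones.

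Of all counts, the mitochondrial genes took a median of 12.2% over the 62 libraries. By label the lowest, median and highest libraries were 5.11%, 9.62% and 19.98% in SxRT dogs, 3.00%, 9.53% and 16.3% in Sx dogs, 12.9%, 15.5% and 46.7% in steroid dogs, and 6.29%, 12.8% and 46.5% in untreated dogs. The 3 RT libraries held 8.06%, 18.4% and 22.1%, and the 3 anti-epileptic libraries 5.66%, 13.5% and 25.5%. The groups overlapped throughout, although 17 of 22 surgical libraries were under the median of untreated dogs and 3 under the lowest untreated library. All 7 steroid libraries lay above the untreated median.

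There were 2 libraries that stood apart, with mitochondrial shares of 46.7% (steroid replicate 5) and 46.5% (untreated replicate 12), while the third highest of the 62 was at 25.5%. They were also among the libraries with the highest totals, 12063982 and 8354260 counts. These totals include the mitochondrial counts themselves, 5632918 and 3886837. Their high share was spread over the chromosome: the 1580-base gene held 35.5% of the mitochondrial counts in steroid replicate 5 and 24.3% in untreated replicate 12. The main fold changes against untreated dogs and the main correlations below are also given without one or both of these libraries.

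**Figure D2:**
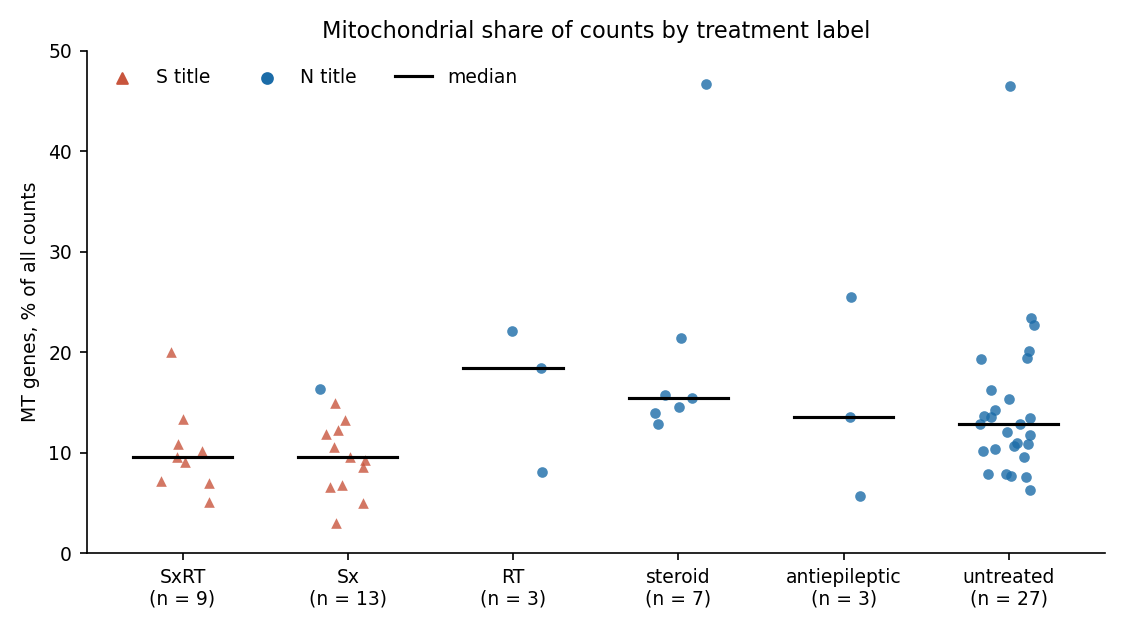
Mitochondrial genes as a percentage of all counts, by treatment label; each point is 1 library, red triangles have S titles, blue circles have N titles, and bars are medians. The medians are 9.62% in SxRT, 9.53% in Sx and 12.8% in untreated dogs, and 2 libraries, 1 steroid and 1 untreated, lie above 40%.

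Surgical dogs (Sx and SxRT, n = 22) were compared with untreated dogs (n = 27) in a model of all 18370 genes that passed the filter, with treatment group, sex and neuter status. All 16 mitochondrial genes had a negative log2 fold change, with a median of -0.64 and a range from -1.13 to -0.29, against a median of -0.02 over all genes tested. Of them, 2 fell at an adjusted p under 0.05 (edgeR quasi-likelihood test, Benjamini-Hochberg over all genes) and 0 rose. Of all genes tested 10.4% fell, 6.37% rose and 16.8% changed in either direction, so 2 of 16 is near the background. At an unadjusted p under 0.05 there were 9 of 16, beside 29.9% of all genes.

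The counts of the 66-base gene ENSCAFG00000022744, which as said above are not a measure of its RNA, changed most. Its share of all counts had a lowest library of 0.00389%, a median of 0.0102% and a highest of 0.0342% in surgical dogs, against 0.00472%, 0.0225% and 0.105% in untreated dogs. The groups overlapped, and 21 of 22 surgical libraries were under the median of untreated dogs. Its log2 fold change was -1.13 (SE 0.31, edgeR adjusted p = 0.0078).

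The 681-base gene ENSCAFG00000022729 took 0.139%, 0.422% and 0.997% of all counts (lowest, median, highest) in surgical dogs, against 0.213%, 0.638% and 3.36% in untreated dogs. Again the groups overlapped, with 19 of 22 surgical libraries below the untreated median. Its log2 fold change was -0.87 (SE 0.29, edgeR adjusted p = 0.031).

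Among the genes that did not pass, the 1378-base gene had -0.78 (SE 0.30, edgeR adjusted p = 0.062), the 528-base gene -0.78 (SE 0.31, adjusted p = 0.069) and the 784-base gene -0.76 (SE 0.30, adjusted p = 0.071). The 954-base gene had -0.65 (SE 0.25, adjusted p = 0.061). The smallest difference was that of the 1545-base gene, -0.29 (SE 0.26, adjusted p = 0.48), and the most abundant gene, of 1580 bases, had -0.48 (SE 0.29, adjusted p = 0.28).

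The size of the difference moved with 1 untreated library. Without untreated replicate 12, the median over the 16 genes was -0.31 and 10.2% of all genes fell. The 681-base gene had -0.55 (edgeR adjusted p = 0.10) and was no longer called, and the 66-base gene remained so at -0.83 (SE 0.26, adjusted p = 0.021). Title number was also looked at, since surgical and untreated dogs are spread over it unevenly. Within numbers 11 to 16 (9 surgical, 18 untreated) the median of the 16 genes was -1.09 and within numbers 17 to 22 (13 surgical, 9 untreated) it was -0.34, with 0 mitochondrial genes called in either range by edgeR. In the early range 2 of 16 had an unadjusted p under 0.05, beside 13.1% of all genes, and in the late range 0 had, beside 17.7%. The early median was -0.38 without untreated replicate 12, with 15 of 16 genes negative and 1 at an unadjusted p under 0.05, beside 12.7% of all genes. The 66-base gene had -1.78 (SE 0.63, edgeR adjusted p = 0.30) in the early range and -0.58 (SE 0.36, adjusted p = 0.42) in the late range. Without that library its early value was -1.26 (SE 0.50, edgeR adjusted p = 0.33). Library measures moved with surgery as well. The median total was 4843122 counts in surgical dogs, against 3850875 in untreated dogs. The share of even values among counts of 1 to 20, which is high because both reads of a pair were counted, had a median of 86.6% in surgical dogs, against 91.4% in untreated dogs. These medians pool all title numbers, so they do not separate surgery from title number. The part of the 2 measures in the result was not tested.

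**Figure D3:**
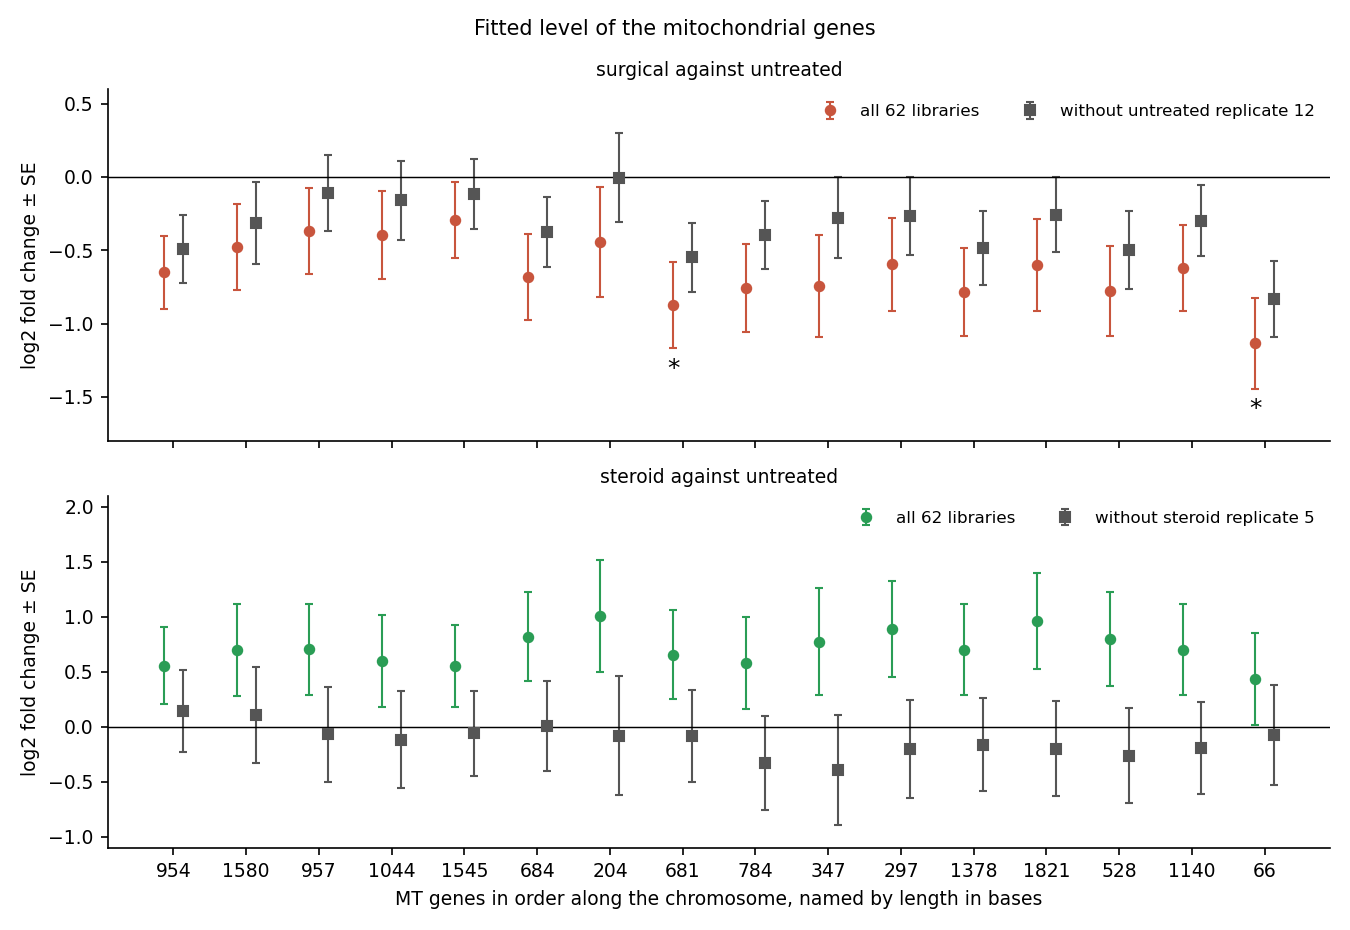
Log2 fold change ± SE of the 16 mitochondrial genes in surgical against untreated dogs (top) and steroid against untreated dogs (bottom), in chromosome order; circles use all 62 libraries and squares leave out untreated replicate 12 (top) or steroid replicate 5 (bottom), and asterisks mark an adjusted p under 0.05 with all libraries. All circles lie below 0 at the top (median -0.64) and above 0 at the bottom (median 0.70), and 13 of 16 squares at the bottom lie below 0.

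A second model took the sum of the mitochondrial counts as each library's size, so that a fold change of a mitochondrial gene is that of its share of the mitochondrial counts. On this scale the median over all genes tested was 0.44 for surgical against untreated dogs, and 19.5% of all genes were called, 4.58% lower and 14.9% higher. Of the 16 mitochondrial genes 0 were called by edgeR and 1 was called by DESeq2. With edgeR 1 of them had an unadjusted p under 0.05, beside 6558 of all 18370 genes. Genes outside MT also carry the change of the mitochondrial sum on this scale, so they are no like background for the 16. The adjusted p of the mitochondrial genes depends on them, since the adjustment runs over all genes. The log2 fold changes of the 16 genes ran from -0.57 to 0.25 around a median of -0.03, with 7 positive and 9 negative. Shares add up to a whole, so values on both sides of 0 follow by construction. The lowest was again the 66-base gene, at -0.57 (SE 0.22, edgeR adjusted p = 0.051, DESeq2 adjusted p = 0.020). Its share of the mitochondrial counts had a lowest library of 0.0620%, a median of 0.116% and a highest of 0.210% in surgical dogs, against 0.0625%, 0.160% and 0.503% in untreated dogs, with 19 of 22 surgical libraries below the untreated median. Without untreated replicate 12 its fold change was -0.57 (edgeR adjusted p = 0.056). Within title numbers 11 to 16 its fold change was -0.97 and within 17 to 22 it was -0.18, and it passed the threshold in neither. The highest was the 1545-base gene, at 0.25 (SE 0.17, edgeR adjusted p = 0.28), with median shares of 14.4% in surgical and 12.3% in untreated dogs. For the 1580-base gene the fold change of its share was 0.02 (SE 0.19), with medians of 38.1% in surgical and 39.8% in untreated dogs.

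In steroid dogs (n = 7) all 16 genes had a positive log2 fold change against untreated dogs, from 0.43 to 1.01 with a median of 0.70, against 0.03 over all genes tested. None was called by edgeR, DESeq2 or limma voom, beside 0.256% of all genes called by edgeR, and 3 had an unadjusted p under 0.05, beside 11.0% of all genes. They were the 1821-base gene at 0.96 (SE 0.44, edgeR adjusted p = 0.39), the 297-base gene at 0.89 (SE 0.44) and the 684-base gene at 0.82 (SE 0.40), both of these at an adjusted p of 0.45. The values moved with both libraries of high mitochondrial share. Without steroid replicate 5 alone, 13 of 16 genes were negative and the median was -0.10. Without untreated replicate 12 alone it was 1.00, with 16 of 16 genes at an unadjusted p under 0.05, beside 11.0% of all genes, and 0 called. Without both libraries all 16 genes were positive, with a median of 0.22, and 0 had an unadjusted p under 0.05. Within title numbers 11 to 16 the median was 0.19 and within 17 to 22 it was 0.74, with 0 genes called in either. On the scale of mitochondrial shares 0.00544% of all 18370 genes were called by edgeR and 2419 had an unadjusted p under 0.05. Of the 16 mitochondrial genes 0 were called or had an unadjusted p under 0.05, and 8 had a positive fold change. The largest difference there was that of the 204-base gene, 0.42 (SE 0.30, edgeR adjusted p = 0.43).

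In RT dogs (n = 3) the 16 genes had a median log2 fold change of 0.29 against untreated dogs and ranged from -0.09 to 0.65. In anti-epileptic dogs (n = 3) the median was 0.22 and the range -0.39 to 0.65. In both comparisons 0 mitochondrial genes were called by edgeR, DESeq2 or limma voom, beside 0.435% of all genes called by edgeR for RT and 0.00544% for anti-epileptic dogs. With edgeR 0 of them had an unadjusted p under 0.05, beside 1442 of all 18370 genes for RT and 847 for anti-epileptic dogs. Single libraries set the direction: without RT replicate 1 the median was -0.37, without RT replicate 2 it was 0.72, without anti-epileptic replicate 1 it was -0.70 and without anti-epileptic replicate 2 it was 0.71. Without steroid replicate 5 and untreated replicate 12 together, the median was 0.60 in RT dogs and 0.57 in anti-epileptic dogs, with 0 genes called in either. In both groups the 954-base and 1580-base genes had the lowest fold changes of the 16. They had -0.09 and -0.08 in RT dogs, where the 14 others were positive, and -0.39 and -0.21 in anti-epileptic dogs, where 3 others were negative, down to -0.14. None of these was called, and both comparisons share the untreated dogs. As shares of the mitochondrial counts, the 16 genes ran from -0.30 to 0.45 in RT dogs (median 0.13, 14 positive) and from -0.61 to 0.51 in anti-epileptic dogs (median 0.22, 12 positive). Of them 0 were called by edgeR in either comparison, beside 0.267% of all genes called for RT and 0.0163% for anti-epileptic dogs. None had an unadjusted p under 0.05 in either, beside 1126 of all 18370 genes for RT and 932 for anti-epileptic dogs.

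SxRT dogs (n = 9) were set against Sx dogs (n = 13) to compare surgery with and without radiotherapy. The 16 genes had log2 fold changes from -0.25 to 0.30 around a median of 0.05, with 10 positive. None was called by edgeR, DESeq2 or limma voom, beside 0.0109% of all genes called by edgeR. With edgeR 0 of the 16 had an unadjusted p under 0.05, beside 939 of all 18370 genes. Within title numbers the direction turned, with a median of -0.65 for 11 to 16 (14 of 16 genes negative) and -0.07 for 17 to 22 (12 negative), and 0 genes called in either. As shares of mitochondrial counts they ran from -0.26 to 0.13, again with 0 called and 0 at an unadjusted p under 0.05. Of all 18370 genes tested on this scale, 0 were called and 783 had an unadjusted p under 0.05.

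By title letter the picture is nearly that of surgery. The mitochondrial genes held a median of 9.53% of all counts in S titles and 13.5% in N titles, which include all untreated dogs. The 1 surgical library with an N title was at 16.3%, the second highest of the surgical libraries. Without it, 4 of the 16 genes were called lower in surgical dogs by edgeR, with a median of -0.66, beside 12% of all genes called lower.

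The title number was fitted as a slope with treatment, sex and neuter status in the model. The 16 genes had slopes from -0.04 to 0.12 (log2 per unit of the number) with a median of 0.02, 14 of them positive, and 0 were called by edgeR, DESeq2 or limma voom. The sign was not shared by subsets, since 13 of 16 slopes were negative in N titles (median -0.03) and 13 in untreated dogs (median -0.05), while all 16 were positive in S titles (median 0.05). Without steroid replicate 5 and untreated replicate 12 together, 13 of 16 were positive with a median of 0.02. In all 62 libraries the 204-base gene alone had an unadjusted p under 0.05, at 0.12 (SE 0.06, edgeR adjusted p = 0.81). Of all 18370 genes 1118 had such a p, so 1 of 16 is near the background. On the scale of mitochondrial shares the 204-base gene had 0.09 (SE 0.03, edgeR unadjusted p = 0.0068, adjusted p = 0.96), and 710 of all genes had an unadjusted p under 0.05. Over all genes tested 0.00544% were called for the level and 0% for the shares. In untreated dogs the mitochondrial share of all counts had a median of 13.7% for numbers 17 to 22 (n = 9) and 10.8% for 11 to 16 (n = 18), and in surgical dogs the medians were 9.62% (n = 13) and 9.53% (n = 9).

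Of the 16 genes, the 954-base gene had the widest relative gap between the title ranges in untreated dogs. Its median share of the mitochondrial counts was 2.29% for numbers 17 to 22, with libraries from 1.67% to 2.99%, and 3.37% for 11 to 16, with libraries from 1.78% to 4.96%. The ranges overlapped, and the late one was narrower. All 9 untreated libraries of the late range are numbered 17 or 18. In surgical dogs the medians were 2.35% for 17 to 22 and 2.88% for 11 to 16. The slope of its share was -0.04 per unit of the number (SE 0.03, edgeR adjusted p = 0.96), and in untreated dogs alone -0.09 (SE 0.07, adjusted p = 0.71), so neither passed the test.

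**Figure D4:**
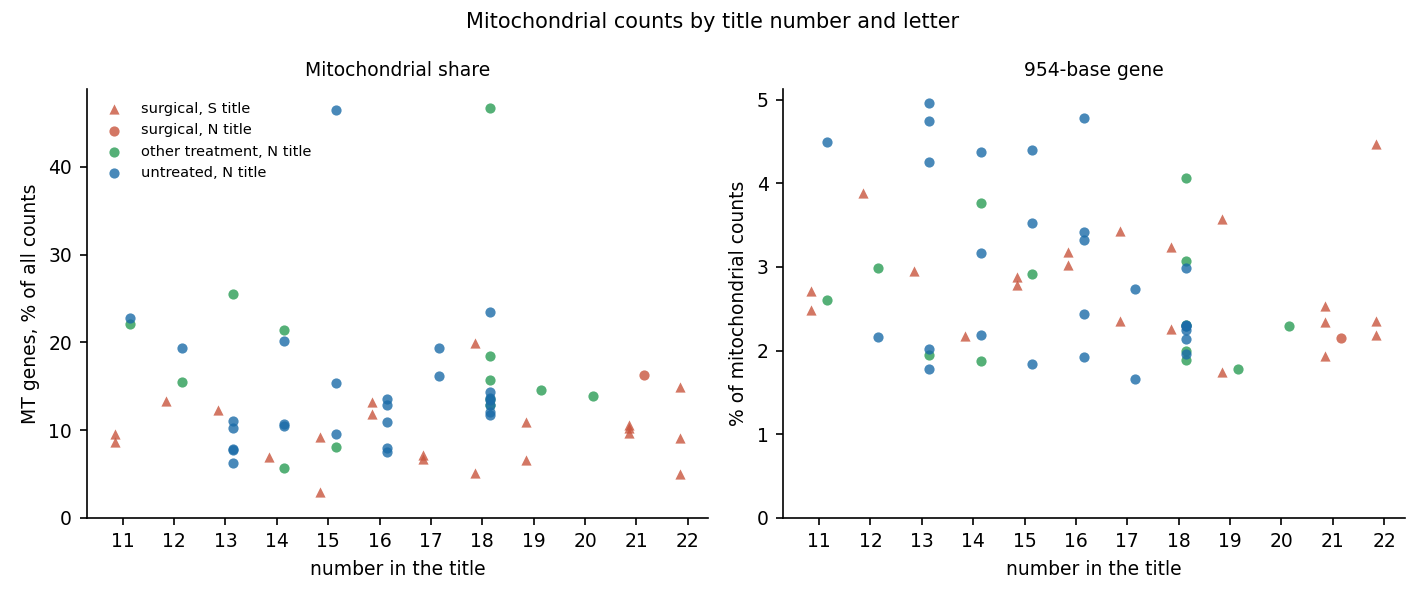
Mitochondrial share of all counts (left, percent) and share of the 954-base gene among mitochondrial counts (right, percent) against the number in the library title; colours give surgical, other treated and untreated dogs, triangles S titles and circles N titles. Untreated libraries numbered 17 to 22 lie between 1.67% and 2.99% at the right, while those numbered 11 to 16 reach 4.96%.

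How the genes varied together was described by Pearson's r over the 62 libraries, on log2 CPM with a pseudocount of 0.5 counts. All 120 pairs were positive (0.41 to 0.97, median 0.86), and since all 16 genes share each library's depth and total, r is a description only. The first principal component held 82.3% of the variance of the 16 genes, which all had the same sign on it. The genes fell into 2 blocks. The 14 genes other than the 954-base and 1580-base genes had r from 0.66 to 0.97 with each other (median 0.88). The 954-base and 1580-base genes had r = 0.88 with each other, while the 1580-base gene had 0.41 to 0.67 with the 14 others and the 954-base gene 0.47 to 0.68. Without the 2 libraries of high mitochondrial share, the median r was 0.85 among the 14 genes, 0.49 for the 1580-base gene with them and 0.53 for the 954-base gene, against 0.57 and 0.60 in all libraries. In untreated dogs alone these medians were 0.88, 0.36 and 0.41. The closest pair of all was the 1044-base and 957-base genes (r = 0.97), which follow each other on the chromosome with 3 short genes between them.

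Position along the chromosome went with a small difference. Neighbouring genes among the 14 had a median r of 0.92, and pairs further apart had 0.88. The 528-base gene, on the other strand from the rest of the long genes, had r from 0.75 to 0.94 with the other 13 (median 0.88), within the range of the plus-strand genes. As the counting used no strand, its counts can include reads of either strand, so this r does not compare RNA of opposite strands. The level of single genes spread most for the 204-base gene (SD of log2 level 1.10) and the 66-base gene (1.02), which have the fewest counts of the 16, and least for the 1545-base gene (0.70).

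On shares of the mitochondrial counts the same 2 blocks opposed each other. The 954-base and 1580-base genes kept a positive r of 0.57, and each was negatively related to all 14 others, from -0.86 to -0.39 for the 1580-base gene and from -0.66 to -0.23 for the 954-base gene. Shares add up to a whole, so a library in which the abundant 1580-base gene is high has lower shares of the others by construction. When the 14 genes were taken as shares of their own summed counts, their r with each other ran from -0.64 to 0.74 with a median of 0.05, and 51 of 91 pairs were positive. On shares of all mitochondrial counts 89 of the 91 were positive, with a median of 0.59. The 954-base gene holds under 5% in each library. The ratio of the pair's counts to those of all other mitochondrial genes ran from 0.203 to 2.20 with a median of 0.666, and both extremes were untreated dogs. Its medians by group were 0.681 in surgical, 0.648 in RT, 0.601 in steroid, 0.498 in anti-epileptic and 0.736 in untreated dogs, and each group's range lay within that of untreated dogs.

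The 1545-base gene was only weakly related to the larger block on this scale. Its r with the other 13 of the larger block ran from -0.08 to 0.32 with a median of 0.14. The median over all pairs of that block was 0.59. That median was 0.05 on shares of the block's own summed counts, a scale on which the 1545-base gene was not examined alone. On shares of mitochondrial counts its r was -0.23 with the 954-base gene and -0.42 with the 1580-base gene. On the scale of all counts its r with the block ran from 0.66 to 0.87 (median 0.81), beside 0.66 to 0.90 (median 0.83) for the 66-base gene. On shares within subsets of libraries, the 954-base and 1580-base genes had r = 0.40 in S titles, 0.62 in N titles and 0.63 in untreated dogs, and the median r of the 1545-base gene with the 13 others was 0.24, 0.21 and 0.13. Without the 2 libraries of high mitochondrial share these values were 0.56 and 0.18.

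**Figure D5:**
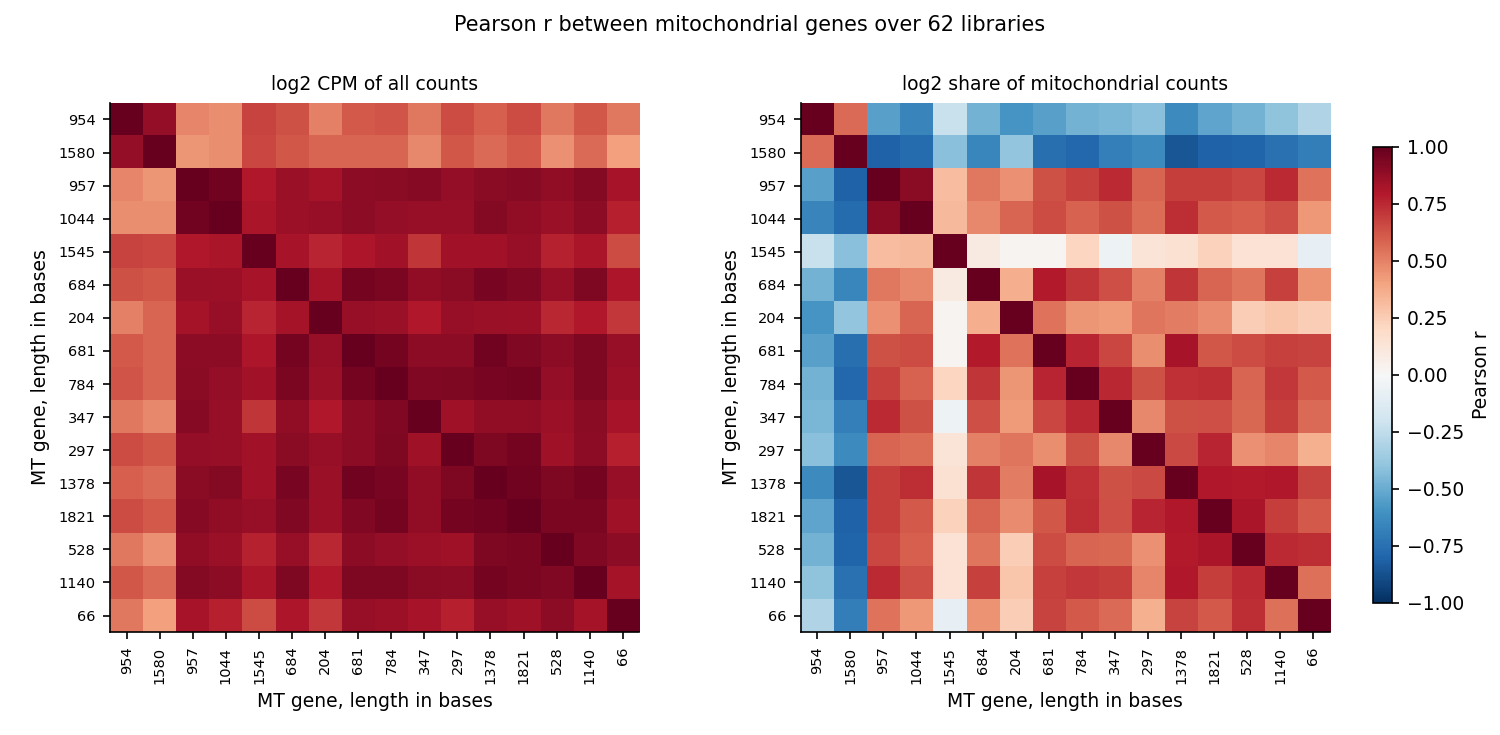
Pearson r between the 16 mitochondrial genes over 62 libraries, on log2 CPM of all counts (left) and on log2 share of mitochondrial counts (right), with genes in chromosome order and named by length in bases; red is positive and blue negative. The 954-base and 1580-base genes form a pair (r = 0.88 at the left, 0.57 at the right). Their squares with the block of 14 are paler than those within the block at the left and blue at the right. The 1545-base gene is near white with most of the block at the right.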

How the data were processed

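The members and lists were chosen with earlier results of these data known. Total RNA of 62 tumours was sequenced, 1 library each, so p-values measure the spread between dogs. The deposited values are unnormalised counts, made by the authors with featureCounts 2.0.4, per the file headers. Exons came from the annotation of Ensembl (release 100, CanFam3.1), only primary alignments were used, and the call sets the paired option but neither strand nor fragment counting. Both reads of a pair thus count, so totals overstate the precision. Per the submitters' processing notes, STAR, featureCounts and DESeq2 were used with canFam3, and the sources used here give no other version. Nuclear copies of mitochondrial sequence can share reads, so all 37 genes are uncertain to that extent.

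The name table at hand (UU_Cfam_GSD_1.0) matched 0 identifiers and holds 0 mitochondrial rows, so symbols, gene classes, sequences, a planned list of nuclear genes for mitochondrial functions and cell type markers were not analysed. No column belongs to another series, and no 2 of the 1891 library pairs were identical.

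Groups came from the treatment label; replicates, numbered in accession order, pair nothing. Counts were filtered with filterByExpr by group (18370 genes), scaled by TMM and tested by quasi-likelihood (edgeR 4.0.16, R 4.3.3) in a single model of the 62 libraries with treatment, sex and neuter status, with Benjamini-Hochberg adjustment. A second fit used summed mitochondrial counts as library size without TMM. Alternatives used DESeq2 1.42.0, limma 3.58.1 (voom), RLE scaling, scaling from genes outside MT, no filter, halved counts, other covariates and left-out libraries; those without untreated replicate 12, title subsets for shares and r, title number in the share model, and shares within 14 genes were chosen after seeing the data. The scripts were tested on simulated data with a smaller spread between libraries than in the fits and changes only in genes outside MT. That test does not measure how well changes of the mitochondrial genes are found. No p was computed for sums over members. Named were all genes of 100 bases or more, the 3 short genes with counts, and called genes.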

Additional observations from a re-analysis of the deposited data

Results flagged for a closer look

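Among 34 values checked in the groups of 4 to 10 dogs (the mitochondrial share of all counts and the share of each of 16 genes, in steroid and SxRT dogs), 3 had a library far from the rest of its group by Dixon's test, where chance gives about 1 in 20. Steroid replicate 5 had a mitochondrial share of 46.7% of all counts, and the next of the 7 steroid libraries had 21.4%. In steroid replicate 2 the 204-base gene held 0.0454% of the mitochondrial counts, and the next lowest steroid library had 0.164%. In SxRT replicate 7 the 1140-base gene held 4.52% of the mitochondrial counts, and the next of the 9 SxRT libraries had 3.23%.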

How the results depend on the processing

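Of 12 comparisons, 10 called 0 mitochondrial genes under every alternative run. In the main fits of these 10, from 0% to 0.435% of all genes were called, so 0 of 16 is near the share over all genes. For the level in surgical against untreated dogs, where 2 genes were called lower beside 10.4% of all genes, the count was 7 with DESeq2 (12.7% of all genes called lower), 6 with RLE scaling (11.8%), 6 with only the groups compared (11.1%), 5 without steroid replicate 5 (11.3%), 4 with counts halved (12%), 4 without sex and neuter status (11.5%) and 4 without the surgical library with an N title (12%). It was 1 with limma voom (7.54%), 1 without untreated replicate 12 (10.2%) and 1 without this library and steroid replicate 5 together (11.1%). It was 0 within title numbers 11 to 16, with or without untreated replicate 12 (0% of all genes), and 0 within 17 to 22 (0.174%), where fewer libraries were fitted. The 66-base gene was negative in 16 of 16 alternatives and called in 13 (log2 fold change -1.78 to -0.58, edgeR, DESeq2 or voom adjusted p 0.00077 to 0.42), and the 681-base gene was negative in 16 and called in 10 (-1.16 to -0.54, adjusted p 0.0067 to 0.60). For shares of mitochondrial counts in surgical against untreated dogs, 0 were called in the main fit, beside 19.5% of all genes, 4.58% of them lower. The 66-base gene was called with DESeq2, with the most abundant gene left out of the denominator and without sex and neuter status. It was also called without steroid replicate 5 and without the N-titled surgical library. In 7 of the 12 alternatives it was not called, and its adjusted p (edgeR or DESeq2) ran from 0.020 to 0.69. With so many genes called on this scale, these calls do not single out the 66-base gene. The cause was not tested. The median mitochondrial share was 7.33% without the most abundant gene. The median r on shares among the 14 genes other than the 954-base and 1580-base genes was 0.0492 as shares of their own counts, against 0.595. The other summaries of shares, and the median r over all 120 pairs with Spearman's rho, pseudocount 2, TMM or without the 2 highest libraries, moved by less than their spread. No paired analysis was possible because replicates were numbered in accession order and the labels tie no dog of one group to a dog of another. The 204-base and 66-base genes have the fewest counts of the 16 genes, and their level spread most between libraries. Groups of 3 dogs give little power, and counts of short genes depend on how reads over gene borders were treated.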
